A study of Mus musculus with 23 samples.

Results

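Acute-phase proteins are a group of secreted proteins whose synthesis rises with inflammation, injury, or hormonal stress. A set of 9 genes of acute-phase proteins and Serpina3 paralogs was followed in bone from mice with and without type 1 diabetes (T1D). The set held the 5 Serpina3 paralogs Serpina3n, Serpina3m, Serpina3g, Serpina3f, and Serpina3b together with Orm1, Saa3, Lcn2, and Hp. These genes were matched by gene symbol, and each symbol identified 1 of the 17644 genes with a TPM value (a level scaled by transcript length and library size). The 9 genes were chosen by symbol with values of these same libraries known, among them the difference between WT T1D and WT Control, in which Serpina3n was among the larger increases, so every difference between WT T1D and WT Control is given for them as a description without a test. Differences between KO T1D and KO Control, and between KO Control and WT Control, were tested, and the latter shares its WT Control libraries with the comparison that was known. Both tests also use a spread estimated over all 4 groups, WT T1D included.

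The libraries came from 23 female C57BL6/N mice aged 11 weeks. Those with T1D had been given streptozotocin, a drug that destroys the insulin-producing β cells of the pancreas, at 100 mg/kg per dose and had been diabetic for 3 weeks, and control mice had been given saline. There were 5 WT mice without diabetes (WT Control), 6 with diabetes (WT T1D), 6 Sarm1-KO mice without diabetes (KO Control), and 6 with diabetes (KO T1D). The knockout is global, so every tissue of these mice carries it, and each library held RNA of femur and tibia of 1 mouse after the marrow had been spun out. SARM1 is an enzyme that consumes NAD and drives axon degeneration, and the design asks how bone responds to diabetes with and without it.

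In the textbook view, the liver makes most circulating acute-phase protein, under interleukin-6, interleukin-1, and glucocorticoids acting through STAT3, C/EBP, NF-kB, and the glucocorticoid receptor. Several of the genes are also transcribed outside the liver. Maturing neutrophils store lipocalin 2 (Lcn2) and haptoglobin (Hp) in their granules, and Serpina3g is known from leukocytes. Mice carry a cluster of Serpina3 genes where humans carry a single SERPINA3, which encodes α1-antichymotrypsin, a serpin that traps serine proteases of neutrophils and mast cells with a loop exposed to the protease, the reactive center loop.

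The 5 Serpina3 members lie in a row on the plus strand of chromosome 12 in GRCm38.p6, from Serpina3b at chr12:104127986-104139546 to Serpina3n at chr12:104406646-104414334. Between them are Serpina3f at chr12:104214544-104221129, Serpina3g at chr12:104236147-104241939, and Serpina3m at chr12:104387157-104394259. The other genes are on other chromosomes, with Orm1 at chr4:63344556-63348163, Saa3 at chr7:46711998-46719615, Lcn2 at chr2:32384637-32387739, and Hp at chr8:109575128-109579172. In the coding sequence, Serpina3n was 85.2% identical to Serpina3m, 84.6% to Serpina3f, 84.3% to Serpina3g, and 78.9% to Serpina3b over the aligned bases. The paralogs shared fewer bases in the reactive center loop than over the whole coding sequence. The 66 bases of the last coding exon that encode this loop are shown because they separate the paralogs both as proteins and as read targets. Capitals mark bases that differ from Serpina3n at the same position, 22 in Serpina3m, 24 in Serpina3g, 30 in Serpina3f, and 22 in Serpina3b.
Serpina3n, chr12:104413448-104413513, plus strand: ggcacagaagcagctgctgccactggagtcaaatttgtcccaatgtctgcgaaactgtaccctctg
Serpina3m, chr12:104393769-104393834, plus strand: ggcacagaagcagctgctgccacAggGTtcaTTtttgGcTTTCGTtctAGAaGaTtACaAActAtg
Serpina3g, chr12:104241072-104241137, plus strand: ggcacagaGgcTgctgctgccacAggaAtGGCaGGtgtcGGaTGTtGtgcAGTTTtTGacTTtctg
Serpina3f, chr12:104220245-104220310, plus strand: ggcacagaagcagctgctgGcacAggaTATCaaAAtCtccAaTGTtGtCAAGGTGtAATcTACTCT
Serpina3b, chr12:104138665-104138730, plus strand: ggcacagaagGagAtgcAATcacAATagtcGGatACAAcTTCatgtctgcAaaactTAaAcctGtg

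In Serpina3m, Serpina3g, and Serpina3f most differences from Serpina3n fell in the last 33 bases (17, 17, and 24, against 5, 7, and 6 in the first 33), whereas in Serpina3b they were spread over both (12 and 10). Likeness between paralogs also bears on counting, since a read that fits several genes has to be divided among them. Of all 100-base windows of the transcript, 0.204% of Serpina3n, 3.58% of Serpina3f, 4.64% of Serpina3g, and 0% of Serpina3b were also found in the transcript of another gene. For Serpina3m the share was 6.09%, shared with Serpina3k, and for Orm1 it was 6.95%, shared with its neighbor Orm2. Windows of Saa3, Lcn2, and Hp were found in no other gene. Counts of Serpina3g, Serpina3f, Serpina3m, and Orm1 could therefore carry some reads of a paralog, whereas those of Serpina3n and Serpina3b could do so little or not at all.

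RefSeq's promoter set for GRCm38.p6 (250 bases before to 50 bases after a listed start) held 6 of the 9 genes. The longest run of bases common to the Serpina3n, Serpina3b, Serpina3f, and Serpina3g promoters was 12 bases long. It occurred in 0.0365% of the 32851 promoters of the set, their own included. Since it was searched for as a run shared by these related genes, its presence in all 4 was given beforehand. Whether it has a function was not tested. The run is printed in capitals, with the bases around it, because these 4 genes share it while their levels differed as described further on.
Serpina3n, chr12:104406641-104406670, plus strand: ccatgccagCATTTCCTAAGAggagggagg
Serpina3b, chr12:104127928-104127957, plus strand: tcacgtcagCATTTCCTAAGAggaaggagg
Serpina3f, chr12:104214470-104214499, plus strand: atacatcacCATTTCCTAAGAtgtgggacc
Serpina3g, chr12:104236167-104236196, plus strand: tatctgcatcaaCATTTCCTAAGAtgtggg
The run began 58 bases before the RefSeq start of the promoter set in Serpina3n, 59 in Serpina3b, 65 and 154 before the 2 starts of Serpina3f, and at base 33 after the start in Serpina3g. In Serpina3n it lies just inside the gene as annotated above, whose first base is upstream of that start. Promoters were also searched on both strands for a STAT motif (TTCNNNGAA), a C/EBP motif (TTGCNNAA), and the NF-kB motif, which 8.3%, 10.8%, and 8.46% of all promoters held. The C/EBP motif was found at 1 place each in Lcn2, Saa3, and Serpina3b and at 2 in Serpina3f, the STAT motif at 1 place in Serpina3f and Serpina3g, and the NF-kB motif at 1 place in Serpina3g. None of the 3 was found in the window of Serpina3n, which says only that these letters are not in it.

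Total counts per library ranged from 16938101 to 20135592, and edgeR's quasi-likelihood test was run on the 14364 genes that reached 10 counts in 5 or more mice. Sarm1 did not separate the genotypes, with a mean level of 1.17 CPM (counts scaled to library size) for WT Control, 0.687 for WT T1D, 0.799 for KO Control, and 1.19 for KO T1D from 5 to 32 counts per library, so KO refers to the libraries labelled Sarm1-KO. Libraries of WT T1D mice A3905 and A3906 stood apart from the others. The summed level of 13 osteoblast and osteocyte markers was 9003 and 7297 CPM in these mice and from 53880 to 119400 CPM in the other 21. Their erythroid, neutrophil late granule, and adipocyte sums were the highest of all mice (241200 and 236600, 45760 and 41340, and 516 and 558 CPM), where WT Control mice had 99180 to 145000, 25230 to 32440, and 171 to 240 CPM. The fitted changes of the 8 tested genes in WT mice are therefore given with and without these mice. In RNA from whole bone, fewer cells of a type and less RNA per cell cannot be told apart.

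**Figure D1:**
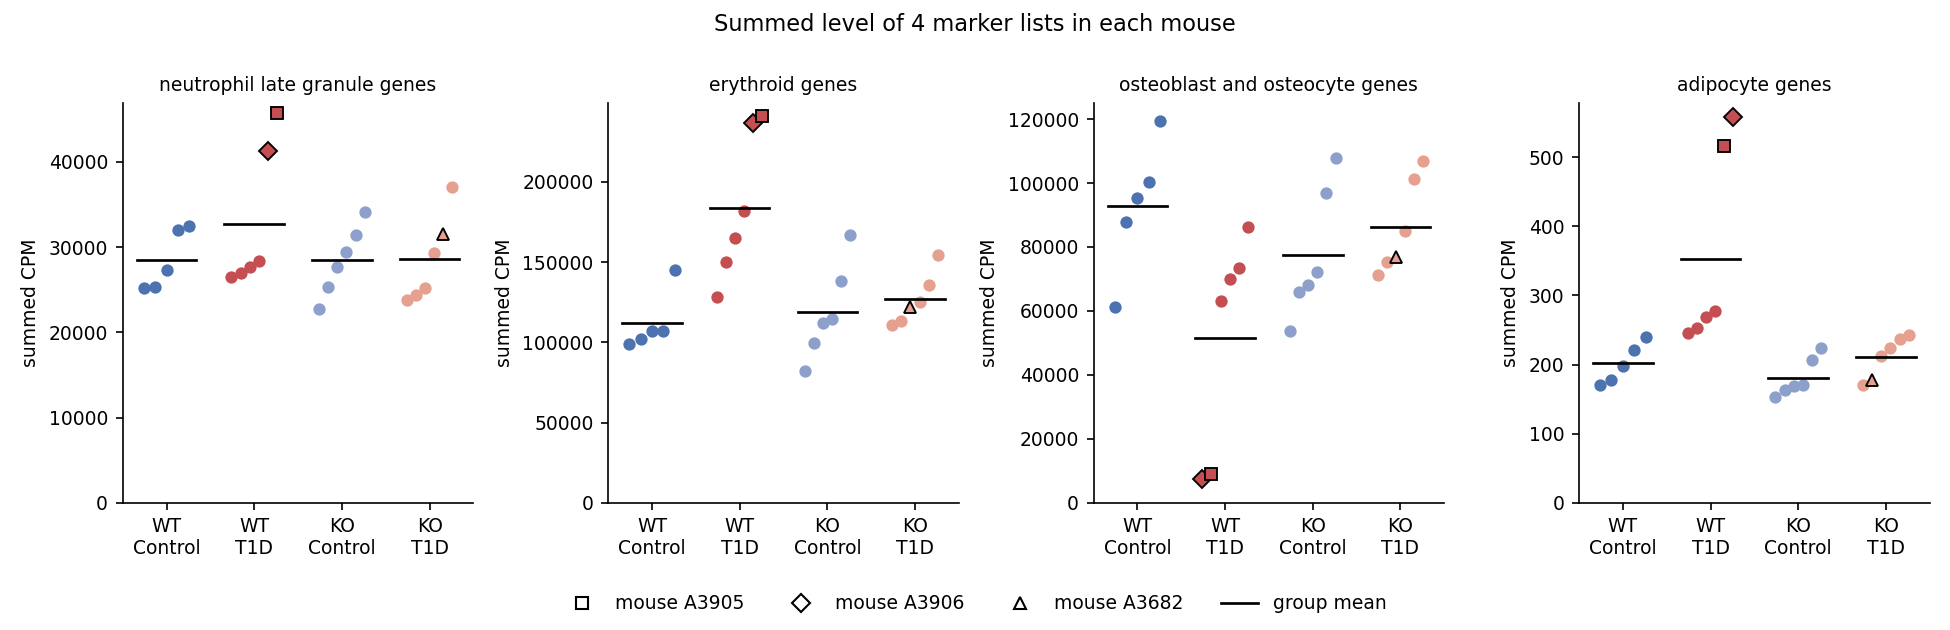
Summed CPM (y axis, linear from 0) of neutrophil late granule, erythroid, osteoblast and osteocyte, and adipocyte marker genes in each mouse (points), by group, with group means as lines. The square (A3905) and diamond (A3906) lie at 9003 and 7297 CPM for osteoblast and osteocyte genes, below every other mouse, and above every other mouse for the other 3 lists.

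The 9 genes spanned a wide range of levels per transcript length. On the TPM scale, averaged over the 23 mice, Lcn2 had 5345 TPM and ranked 13 of 17644 genes, Hp 430.6, Serpina3g 30.5, Orm1 22.9, Serpina3f 7.22, Serpina3b 4.96, Serpina3n 1.71, Saa3 1.35, and Serpina3m 0.02. Lcn2 exceeded Hp and Hp exceeded Serpina3g in 23 of 23 mice. Serpina3g exceeded Orm1 in 21 of 23 mice, although their ranges overlapped, and Serpina3f exceeded Serpina3b in 21. Serpina3n and Saa3 could not be ordered, as Serpina3n was the higher of the pair in 8 of 23 mice. Of the 9 genes, 8 passed the count filter. Serpina3m did not.

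**Figure D2:**
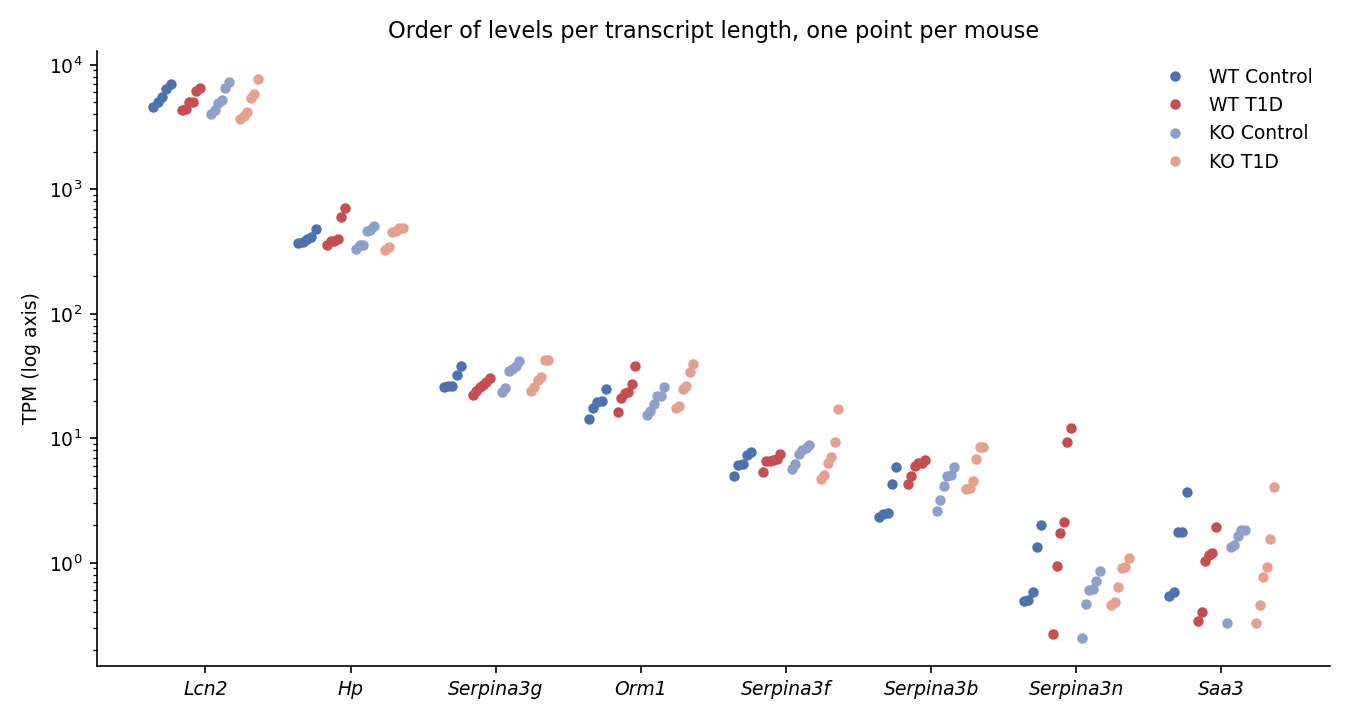
TPM of 8 genes (y axis, log scale) in each of 23 mice, colored by group and ordered by mean level from Lcn2 (5345 TPM) to Saa3 (1.35 TPM). The points of Lcn2 and Hp lie apart from all others, while those of Serpina3n and Saa3 overlap over most of their range and 2 WT T1D points of Serpina3n lie far above the rest.

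Serpina3n encodes the secreted serpin that is the closest mouse counterpart of α1-antichymotrypsin and inhibits neutrophil proteases and granzyme B. In WT Control it was 0.658, 0.661, 0.876, 1.86, and 2.60 CPM in the 5 mice, on the CPM scale after TMM normalization. In WT T1D it was 0.459, 1.52, 2.50, 3.21, 17.8, and 23.7 CPM. The values of 17.8 and 23.7 belonged to A3906 and A3905, and of the other 4 mice 1 lay above every WT Control mouse (3.21 CPM), 1 below every control (0.459 CPM), and the rest within their range. In KO Control Serpina3n ranged from 0.331 to 1.18 CPM with a median of 0.851, and in KO T1D from 0.685 to 1.68 CPM with a median of 1.08.

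The fitted change of Serpina3n between WT T1D and WT Control was 2.62 ± 0.70 on the log2 scale (SE), a 6.14-fold difference of the means (8.20 ± 9.93 CPM, n = 6, against 1.33 ± 0.866 CPM, n = 5, SD). Without A3905 and A3906 it was 0.53 ± 0.47, with a mean of 1.92 ± 1.20 CPM (n = 4), so the size of the difference came from those mice. In Sarm1-KO mice the change with T1D was 0.41 ± 0.70 (adjusted p = 1 by edgeR's quasi-likelihood test). The spread within WT T1D, with a coefficient of variation of 121%, was far above that of WT Control (65%), KO Control (34.3%), and KO T1D (36.4%). The difference between the 2 diabetes effects was -2.21 ± 0.98 on the log2 scale, and -0.13 ± 0.64 without A3905 and A3906, given without a test because it contains the known values. KO Control was 0.68 lower than WT Control on the log2 scale (-0.68 ± 0.72, adjusted p = 0.9985 by edgeR).

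Serpina3b, the paralog that lies farthest from Serpina3n among these genes, showed a broader pattern. It was 3.07, 3.16, 3.31, 6.41, and 7.78 CPM in WT Control and 6.17, 9.37, 9.46, 10.1, 10.1, and 12.8 CPM in WT T1D. By CPM, all 6 WT T1D mice were above the WT Control mean and 5 were above every WT Control mouse, among them 3 of the 4 mice other than A3905 and A3906. Those 3 mice (A1764, A1787, and A1758) have IDs starting with A17, as does WT Control mouse A1757 (6.41 CPM) but no KO mouse. The remaining WT T1D mouse, A3909, had 6.17 CPM, inside the WT Control range. Any part of the ID numbering in the change with T1D was not tested. By TPM, A3906 (4.99 TPM) was not above the highest WT Control mouse (5.91 TPM). The fitted change was 1.03 ± 0.27 on the log2 scale (2.04-fold, from 4.75 ± 2.20 to 9.67 ± 2.12 CPM), and 0.91 ± 0.29 without A3905 and A3906. In KO mice Serpina3b ranged from 4.18 to 7.72 CPM in Control (median 6.0) and from 5.55 to 12.2 CPM in T1D (median 8.14), with 3 of 6 KO T1D mice above every KO Control mouse. That change of 0.55 ± 0.25 on the log2 scale did not pass the threshold after adjustment over all genes (adjusted p = 1 by edgeR).

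Serpina3g, also called Spi2A, is an inhibitor that acts inside leukocytes on lysosomal cathepsins. Its levels overlapped throughout, with 31.9 to 49.5 CPM for WT Control, 33.9 to 46.9 for WT T1D, 32.5 to 53.0 for KO Control, and 34.4 to 58.2 for KO T1D. The fitted change with T1D was 0.10 ± 0.15 in WT and 0.03 ± 0.14 in KO mice on the log2 scale (adjusted p = 1 in KO by edgeR), and 0.0651 ± 0.165 in WT without A3905 and A3906. On the scale of log2 (TPM + 1) the values were -0.17 and -0.0342, where the median tested gene was at -0.24 and -0.037, so Serpina3g lay above that median in WT mice and close to it in KO mice. A3905 and A3906, so high for Serpina3n, had 46.9 and 38.98 CPM of Serpina3g, within the range of WT Control by CPM. By TPM they had 25.71 and 22.13 TPM, below the lowest WT Control mouse (25.83 TPM).

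Serpina3f is the paralog closest to Serpina3g, with 86.8% identity over the aligned coding bases. WT Control mice had 7.08 to 11.3 CPM, WT T1D mice 9.84 to 13.6, KO Control mice 8.71 to 12.7, and KO T1D mice 7.33 to 27.0. The value of 27.0 CPM belonged to KO T1D mouse A3682, and the next highest mouse of any group had 13.6 CPM. The fitted change in WT mice was 0.26 ± 0.24 on the log2 scale, and 0.21 ± 0.26 without A3905 and A3906. That in KO mice of 0.21 ± 0.22 (adjusted p = 1 by edgeR) became -0.15 without that mouse.

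Serpina3m was close to absent. Its counts were 0 in 19 of 23 mice and came to 10 in all libraries together, 6 of them in A3906, 2 in a KO Control mouse, and 1 each in a WT T1D and a KO T1D mouse. A count of 0 allows up to 3 counts per library, or 0.147 to 0.173 CPM, so no difference between groups was detectable at this depth.

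Summed over the 8 Serpina3 paralogs in the TPM table, the total was 56.0 ± 10.7 CPM for WT Control, 73.1 ± 16.0 for WT T1D, 62.9 ± 8.67 for KO Control, and 68.7 ± 19.5 for KO T1D (SD). Serpina3g made up 66.1% to 71.3% of that sum in WT Control mice but 46.2% and 47.7% in A3905 and A3906, where Serpina3n made up 23.3% and 21.8%. In the other mice Serpina3n made up at most 5.45% of the sum. The fitted change of the summed paralogs with T1D was 0.39 ± 0.17 in WT and 0.13 ± 0.16 in KO mice on the log2 scale, and in WT mice 0.19 ± 0.17 without A3905 and A3906.

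**Figure D3:**
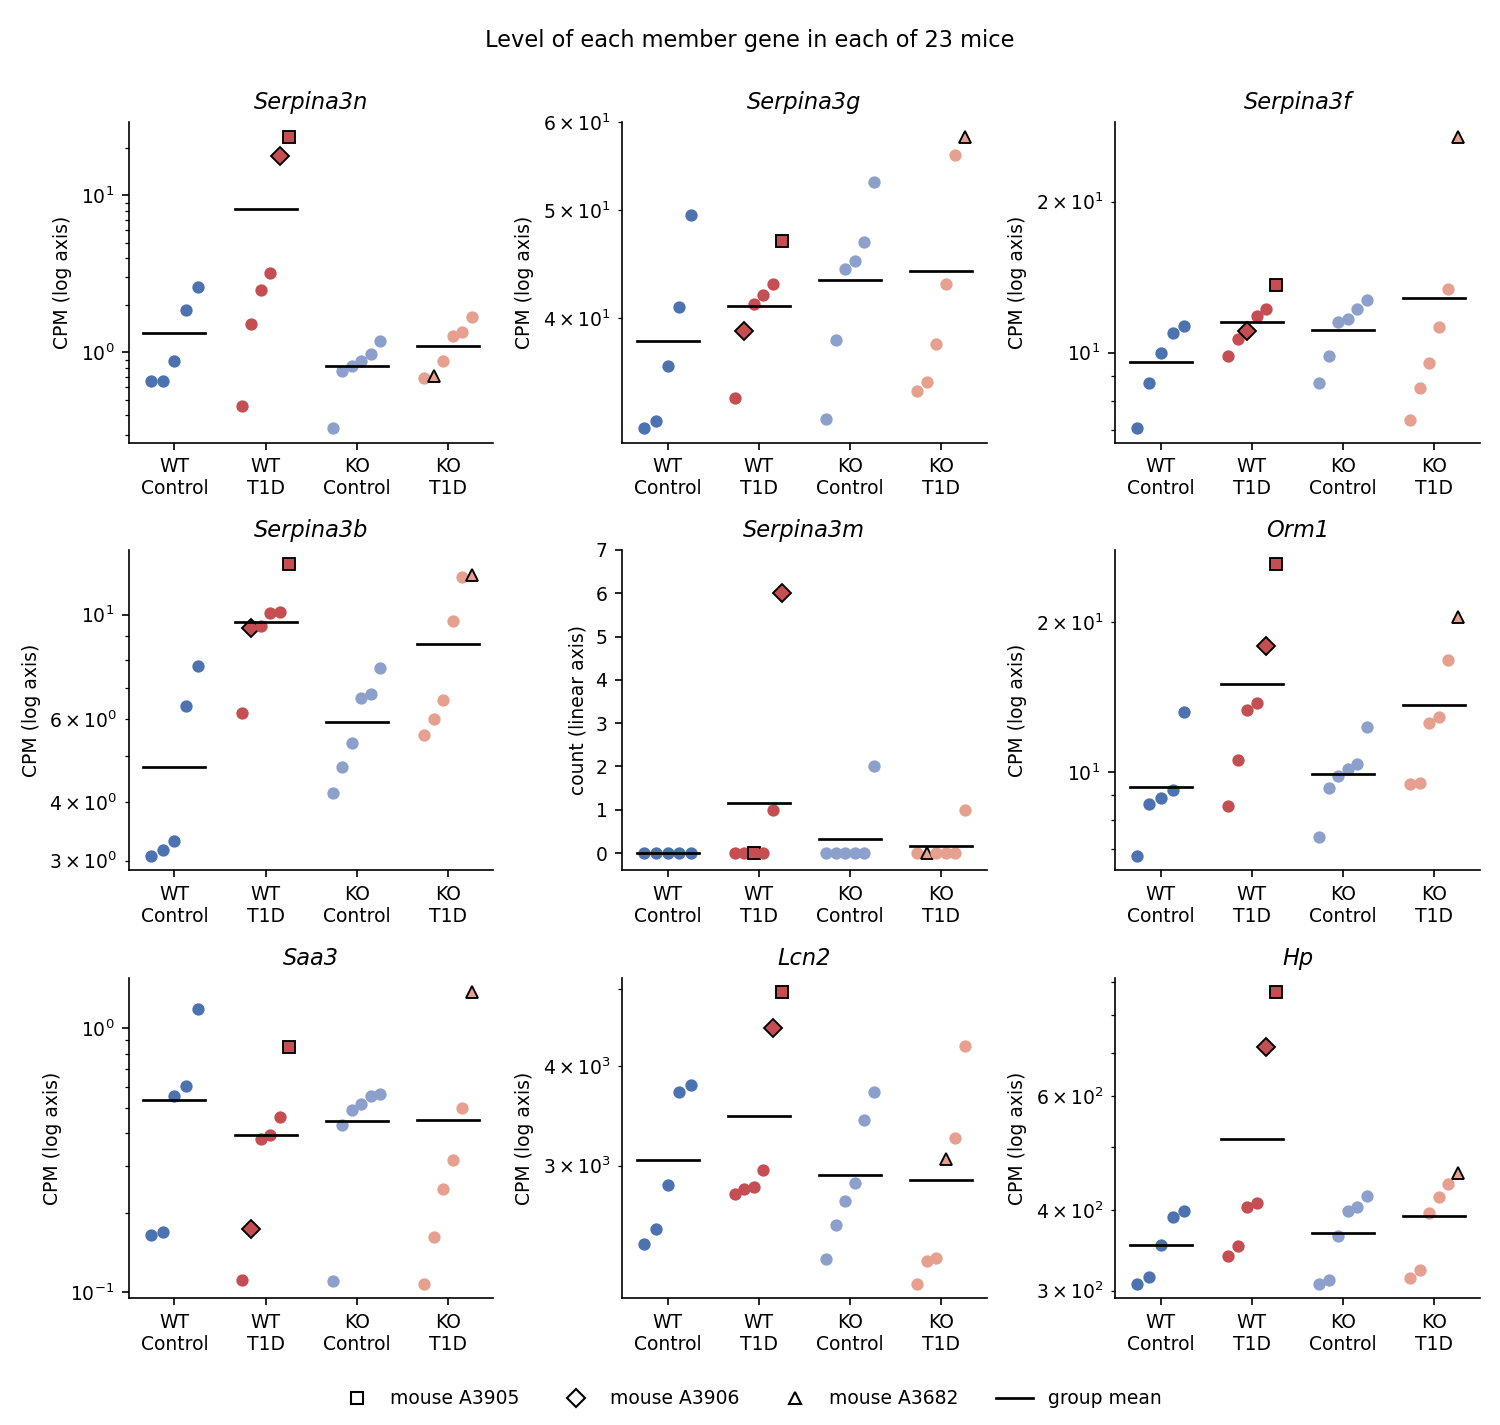
Level of each of the 9 genes in each of 23 mice by group (points), in CPM on a log axis except Serpina3m, which is shown as counts on a linear axis, with group means as lines. Serpina3n of A3905 (square, 23.7 CPM) and A3906 (diamond, 17.8 CPM) lies far above all other mice, Serpina3b is higher in most WT T1D mice, and A3682 (triangle) is the highest mouse for Serpina3f, Serpina3g, and Saa3.

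Orm1 encodes α1-acid glycoprotein, a plasma carrier of lipids and drugs that is also made by myeloid cells. It was 6.78, 8.62, 8.87, 9.21, and 13.2 CPM in WT Control and 8.56, 10.6, 13.3, 13.8, 17.9, and 26.2 CPM in WT T1D. By CPM, A3905 was the highest of all mice, and 4 of 6 WT T1D mice were above every WT Control mouse. By TPM, A3682 of KO T1D was the highest (39.67 TPM). Of WT T1D only A3905 and A3906 (38.25 and 27.08 TPM) were then above every WT Control mouse (highest 25.09 TPM). The fitted change of 0.69 ± 0.24 on the log2 scale (1.61-fold) was 0.31 ± 0.22 without A3905 and A3906. In KO mice Orm1 ranged from 7.41 to 12.3 CPM in Control (median 9.97) and from 9.46 to 20.5 CPM in T1D (median 12.7), with 4 of 6 KO T1D mice above every KO Control mouse, and its change of 0.46 ± 0.23 did not pass the threshold (adjusted p = 1 by edgeR). By TPM only A3682, A3683, and A3676 of KO T1D were above every KO Control mouse (highest 25.66 TPM).

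Hp encodes haptoglobin, which binds hemoglobin released from red cells so that macrophages can clear it. Hp was 307.7, 315.6, 353, 389.6, and 398.1 CPM in WT Control and 339.9, 351.4, 404.9, 410.3, 713.2, and 867.9 CPM in WT T1D. The highest values were again those of A3906 and A3905, and the other 4 WT T1D mice lay between 339.9 and 410.3 CPM, inside or just above the WT Control range. Its change of 0.54 ± 0.20 on the log2 scale (1.46-fold) was 0.09 ± 0.12 without these mice. In KO mice Hp ranged from 307.6 to 420.2 CPM in Control (median 381.9) and from 314 to 456 CPM in T1D (median 407.7), and the change was 0.09 ± 0.19 (adjusted p = 1 by edgeR).

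Lcn2 encodes lipocalin 2, which sequesters bacterial siderophores, the iron carriers of bacteria, and is also secreted by osteoblasts. It was 2391, 2501, 2837, 3716, and 3790 CPM in WT Control and 2766, 2805, 2823, 2967, 4467, and 4955 CPM in WT T1D. By CPM, A3906 and A3905 were above every WT Control mouse, and the other 4 WT T1D mice, between 2766 and 2967 CPM, lay inside the control range. By TPM they were not, with 6106 and 6554 TPM against 7011 TPM in the highest WT Control mouse. In KO mice Lcn2 ranged from 2293 to 3714 CPM in Control (median 2778) and from 2132 to 4246 CPM in T1D (median 2681). The fitted change was 0.18 ± 0.20 on the log2 scale in WT mice, -0.10 ± 0.18 without A3905 and A3906, and -0.02 ± 0.19 in KO mice (adjusted p = 1 by edgeR). On the TPM scale, where the median tested gene was at -0.24 between WT Control and WT T1D, Lcn2 was at -0.12.

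Saa3 encodes the serum amyloid A isoform that macrophages and adipocytes make outside the liver. It was near the limit of detection, with 189 counts over all 23 libraries and at least 10 counts in 7 mice. WT Control mice had 0.165 to 1.18 CPM, WT T1D mice 0.111 to 0.849, KO Control mice 0.110 to 0.564, and KO T1D mice 0.108 to 1.36. The highest mice were A3682 of KO T1D and a WT Control mouse, and no group stood apart. The fitted change was -0.43 ± 0.61 on the log2 scale in WT mice, -0.66 ± 0.68 without A3905 and A3906, and 0.01 ± 0.58 in KO mice (adjusted p = 1 by edgeR), the latter -0.15 on the scale of log2 (TPM + 1).

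Of the 8 genes that passed the filter, 0 had every WT T1D mouse above every WT Control mouse, where 1.32% of all tested genes did, and 0 had every KO T1D mouse above every KO Control mouse, where 0.0905% did. For T1D in WT mice, 1.5% of tested genes passed the threshold as higher and 0.828% as lower, in the comparison from which the genes were known. In KO mice 0 of the 8 genes passed an adjusted p under 0.05, as did 0% of all 14364 genes by edgeR, with 452 genes at an unadjusted p under 0.05 and 0 genes called by DESeq2. Between KO Control and WT Control 0 of the 8 passed, where 0.0278% of genes did, and 0 of the 8 were separated, where 0.613% were. By CPM, A3905 had the highest value of all mice for 5 of the 8 genes and was among the 3 highest for 7, and A3682 had the highest value for 3 and was among the 3 highest for 6. By TPM, A3905 was highest for 2 and among the 3 highest for 4, and A3682 for 4 and 5. How often these mice ranked so high over all tested genes was not counted. The ranks of A3905 also contain WT T1D values known when the genes were chosen.

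**Figure D4:**
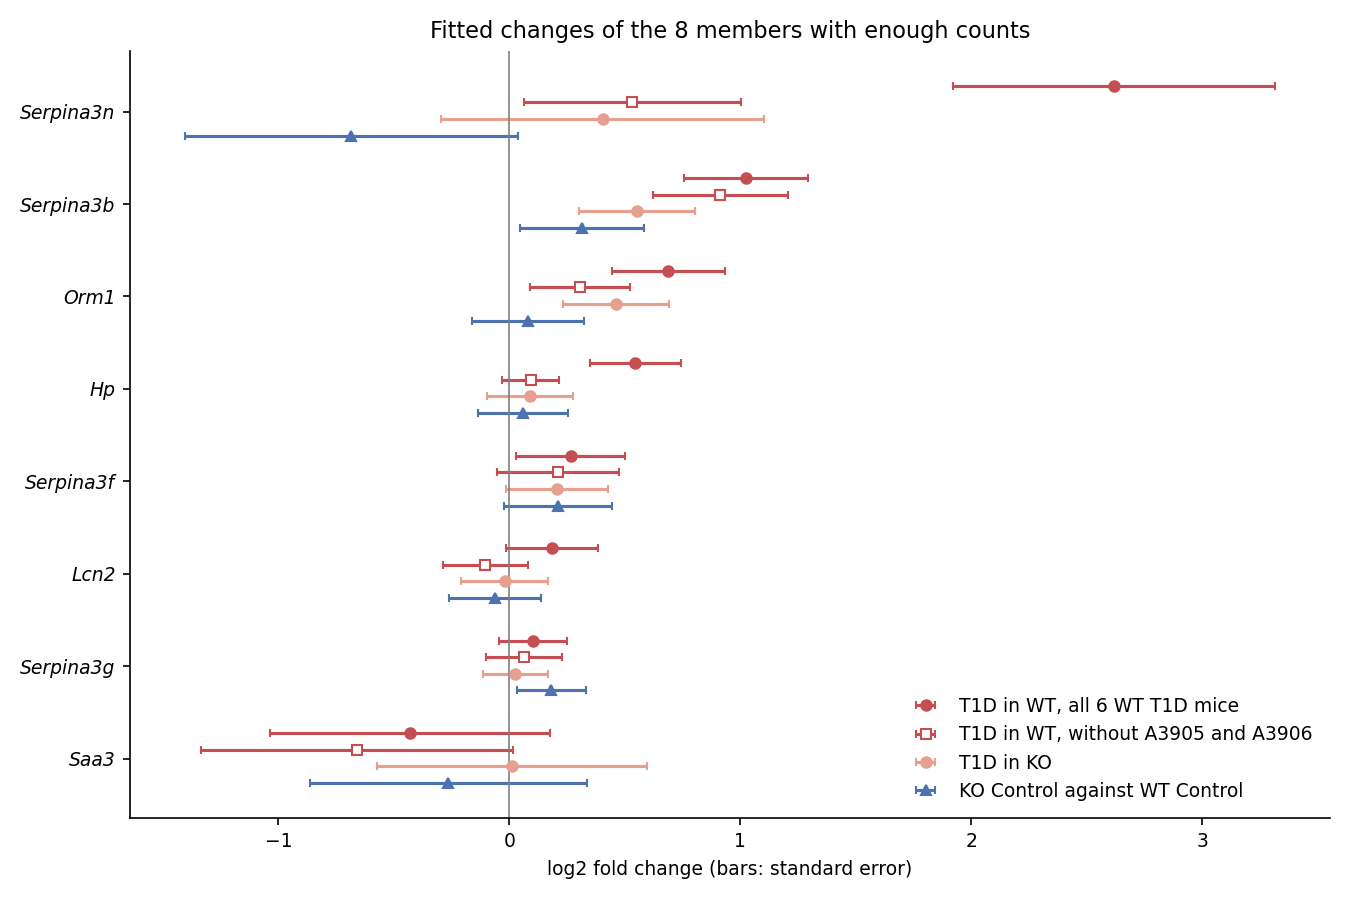
Fitted log2 fold change (x axis, points) with its standard error (bars) for 8 genes, for T1D in WT mice with all mice and without A3905 and A3906, for T1D in KO mice, and for KO Control against WT Control. Serpina3n is at 2.62 with all mice and at 0.53 without these mice, and Serpina3b is at 1.03 and 0.91.

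Because neutrophils hold Lcn2 and Hp in their granules, their levels were set beside those of 13 other late granule and neutrophil genes. Lcn2 made up 9.48% to 11.7% of that summed level for WT Control, 9.90% to 11.0% for WT T1D, 9.13% to 11.3% for KO Control, and 8.95% to 11.5% for KO T1D. A3905 and A3906 lay inside these ranges, so Lcn2 and the sum of these 13 genes were high in these mice in the same proportion. Hp made up 1.09% to 1.46% of the sum for WT Control, 1.24% to 1.90% for WT T1D, 1.23% to 1.38% for KO Control, and 1.19% to 1.57% for KO T1D, with A3905 and A3906 highest. Orm1 made up 0.0266% to 0.0412% for WT Control, 0.0317% to 0.0572% for WT T1D, 0.0297% to 0.0391% for KO Control, and 0.0387% to 0.0650% for KO T1D. The KO groups overlapped only at their edge in this ratio, but more by CPM (7.41 to 12.3 against 9.46 to 20.5). How many other genes come as close to separation in such a ratio was not counted. Summed over 6 neutrophil primary granule genes, A3905 and A3906 had 6576 and 5902 CPM, inside the WT Control range (3919 to 6787 CPM). The part of neutrophil content in the levels of Lcn2, Hp, and Orm1 was not tested.

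**Figure D5:**
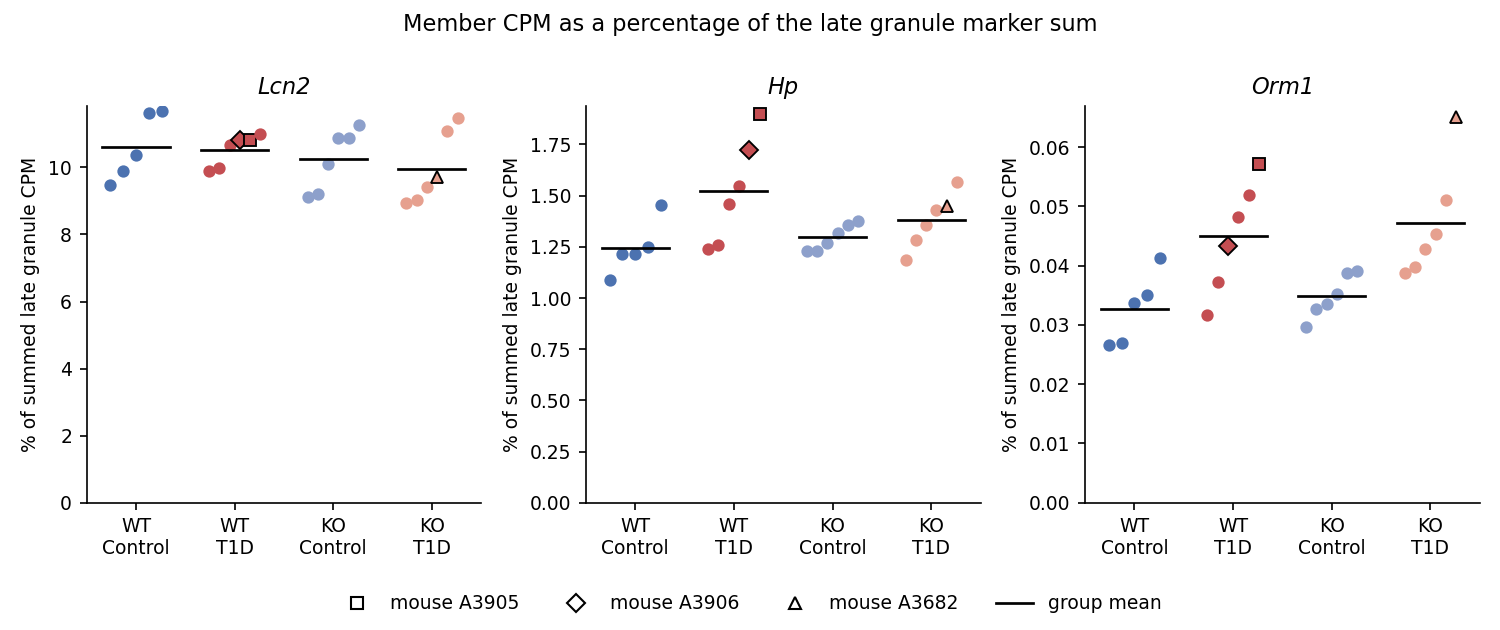
CPM of Lcn2, Hp, and Orm1 as a percentage of the summed CPM of 13 neutrophil late granule genes (y axis, from 0) in each mouse by group, with group means as lines. Lcn2 stays between 8.95% and 11.7% in all 23 mice, while Hp is highest in A3905 and A3906 and Orm1 is highest in A3682.

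The genes whose pattern over the 23 mice was most like that of a member, by Pearson's r of log2 CPM, differed between members and are given as a description, since all share the same libraries. For Lcn2 they were Ngp (r = 0.963, rho = 0.944) and Cd177 (r = 0.963, rho = 0.932), both neutrophil genes, and Siglece (r = 0.927), with r of 0.963, 0.975, and 0.936 after group means were subtracted. For Hp they were Chil3 (r = 0.942), Asprv1 (r = 0.939), and Bst1 (r = 0.934), and for Orm1 Gm5483 (r = 0.885), Fpr1 (r = 0.855), a formyl peptide receptor, and Il1r2 (r = 0.853), the decoy interleukin-1 receptor. Without A3905 and A3906, the mice farthest from the median for Lcn2 and Hp, r was 0.945, 0.944, and 0.899 for Lcn2. For Hp it was then 0.78, 0.75, and 0.804. Without A3905 and A3682, the farthest for Orm1, r was 0.814, 0.774, and 0.781. Ngp and Chil3 are also among the 13 neutrophil genes above.

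The closest genes to Serpina3n were of another kind. They were Syngr1 (r = 0.897, rho = 0.706), Pck1 (r = 0.889, rho = 0.735), which encodes the gluconeogenic enzyme phosphoenolpyruvate carboxykinase, and Fabp4 (r = 0.888, rho = 0.468), the fatty acid carrier of adipocytes. Without A3905 and A3906 r was 0.646, 0.624, and 0.392, so the relation rested largely on these mice. For Serpina3b they were Tuba4a (r = 0.880, rho = 0.901), Spn (r = 0.840, rho = 0.825), and Scnn1a (r = 0.838, rho = 0.875), and r was still 0.869, 0.847, and 0.816 without the 2 farthest mice. For Serpina3g they were Abi1 (r = 0.771), Bak1 (r = 0.700), and Mapkapk2 (r = 0.697), for Serpina3f Cdc42se2 (r = 0.718), Ankrd49 (r = 0.708), and Scyl3 (r = 0.676), and for Saa3 Mapkapk2 (r = 0.799), Atic (r = 0.677), and Sidt1 (r = 0.662). Without the 2 mice farthest from the median, A3682 among them each time, r was 0.707, 0.562, and 0.603 for Serpina3g, 0.524, 0.596, and 0.442 for Serpina3f, and 0.62, 0.441, and 0.569 for Saa3.

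Other genes of the acute-phase system were read from lists chosen with earlier results of these data known, and for T1D in WT mice their median was set beside that of all tested genes (-0.01 on the log2 scale, 48.1% positive). Of the other acute-phase proteins, 15 of 30 in the table were tested, 0 passed in either direction, 6 were positive, and the median log2 change was -0.04. The most abundant of them, C3, the central complement component, and Serping1, the C1 inhibitor, were at -0.01 ± 0.10 and -0.09 ± 0.08 (adjusted p = 0.98 and 0.55 by edgeR). Of other Serpina3 paralogs only Serpina3c was tested (0.28 ± 0.31), and its value was -0.30 without A3905 and A3906. Negative acute-phase proteins, whose synthesis falls in inflammation, had 0 of 2 tested genes past the threshold (Trf 0.03 ± 0.08, Rbp4 -0.24 ± 0.20). Hepatocyte markers were close to absent, with albumin at a mean of 0.0297 CPM and a summed level of 0.164 to 8.51 CPM in all mice but A1764 of WT T1D, which had 51.5 CPM, 48.9 of them from Ttr, the transthyretin gene.

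Upstream, 0 of 19 inducing cytokines and receptors passed as higher and 1 as lower, Lifr, a receptor of the interleukin-6 family (-0.67 ± 0.11, adjusted p = 0.0174 by edgeR), while the abundant Csf3r and Tnfrsf1a were at -0.10 ± 0.14 and 7.7e-05 ± 0.083. Of 18 transcription factors and signal carriers, 0 passed as higher, and the abundant Stat3 and Jak1 were at -0.05 ± 0.06 and 0.03 ± 0.06. Of 14 glucocorticoid-responsive genes, 0 passed, 13 were positive, and the median was 0.52, and without A3905 and A3906 10 were positive with a median of 0.22. The most abundant of them, Cdkn1a and Tsc22d3, were at -0.42 ± 0.18 and 0.64 ± 0.24.

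Downstream, 2 of 14 receptors and binding partners passed as higher, Hbb-bs (0.89 ± 0.20, adjusted p = 0.0367 by edgeR) and Hba-a1 (0.69 ± 0.19, adjusted p = 0.0499), the hemoglobin chains that haptoglobin binds. Of 16 proteases listed beside the serpins, not all of them serpin targets, 0 passed, with the neutrophil elastase gene Elane at 0.30 ± 0.19 and the cathepsin B gene Ctsb at 0.08 ± 0.07. Of 15 other serpins, 0 passed, and the abundant Serpinf1 and Serpinh1, both osteoblast products, were at -0.60 ± 0.43 and -0.78 ± 0.39. Among cell markers, 7 of 13 erythroid genes passed as higher, with Car1 at 1.77 ± 0.33, Hbb-bs, and Hba-a1 the furthest, 1 of 9 adipocyte genes passed as higher (Fabp4, 1.36 ± 0.32), 2 of 13 osteoblast and osteocyte genes passed as lower (Ibsp, -0.78 ± 0.15, and Runx2, -0.66 ± 0.16), and 1 of 7 T and NK cell genes passed as lower (Cd4, -0.67 ± 0.17, adjusted p = 0.0458 by edgeR), with 0 of the 7 positive. The most abundant adipocyte gene, Adipoq, was at 0.24 ± 0.15, and the most abundant T and NK cell gene, Nkg7, at -0.00083 ± 0.14. Of the 13 neutrophil late granule genes 0 passed, with the abundant Ngp and S100a9 at 0.16 ± 0.17 and 0.32 ± 0.18. Of these 13 genes 12 were positive (median 0.26), and without A3905 and A3906, 4 were positive (median -0.04). Without these mice 0 genes of any list, and 0 of all genes, passed for T1D in WT mice (1571 genes at an unadjusted p under 0.05), while 13 of 13 erythroid genes (median 0.41), 8 of 9 adipocyte genes (median 0.45), 0 of 13 osteoblast and osteocyte genes (median -0.37), and 2 of 7 T and NK cell genes (median -0.41) were positive. Of the WT T1D mice left without A3905 and A3906, all but A3909 had IDs starting with A17, as did A1757 of WT Control. Erythroid sums were 150300 to 181600 CPM in these T1D mice, 128100 in A3909, 145000 in A1757, and 99180 to 107300 in other controls. In the same order, osteoblast and osteocyte sums were 63040 to 86130, 73520, 61350, and 87820 to 119400 CPM. Adipocyte sums were 246 to 268, 278, 171, and 178 to 240 CPM. Any part of the ID numbering was not tested. In KO mice with T1D and between the Control groups, 0 genes of any list passed.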

How the data were processed

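RNA-Seq of bone from 23 mice was analyzed, with 1 library per mouse and groups taken from the labels. The authors deposited RSEM expected counts as whole numbers without normalization. They also deposited TPM values, whose calculation is not given in the sources used here beyond the use of RSEM for gene levels. Paired-end reads of 100 bases from an oligo dT library had passed SOAPnuke filtering before alignment to GRCm38.p6 by HISAT and Bowtie2, and these steps were not repeated. The 9 genes and all lists were chosen with earlier results of these data known. Counts were tested in R 4.3.3 with edgeR 4.0.16 (TMM, quasi-likelihood test of a 4-group model, at least 10 counts in at least 5 mice, Benjamini-Hochberg adjustment, threshold 0.05). DESeq2 1.42.0 and limma 3.58.1 served as alternatives, the latter on log2 (TPM + 1) and log2 (TPM + 0.1). The fit was tested on simulated data. Each p-value sets a difference against the spread between mice within groups, estimated over all 4 groups together. The KO tests thus draw in part on the spread of WT T1D, A3905 and A3906 included. Without these mice the SE for T1D in KO was 0.43 in place of 0.70 for Serpina3n and 0.10 in place of 0.19 for Hp. For Serpina3g it stayed at 0.14. The 55 pairs of same-group libraries all differed beyond sampling noise (chi-square per gene 10.9 to 184). Total counts were 16938101 to 20135592, so genes such as Saa3 are limited by depth. Coding sequences from GENCODE (GRCm38) were aligned with MAFFT 7.526. Promoters came from RefSeq, and positions are of GRCm38.p6. Genes are named from each list for which genes past the threshold are counted. These are the 3 with the largest change in WT mice among those past it and at a mean of at least 1 CPM. Where fewer than 2 passed, the 2 most abundant are named as well. For each member the text names the 3 most similar genes by Pearson's r of log2 (CPM + 0.5). Lower calls in the lists of transcription factors and of receptors and binding partners are not reported here. Figures were drawn in Python 3.11.15 with matplotlib 3.10.9.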

Additional observations from a re-analysis of the deposited data

Results flagged for a closer look

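Among the 32 combinations of 8 genes and 4 groups that were examined for a single mouse lying far from its group on the log2 scale (Dixon's ratio at the 95% level), 1 was found, and chance alone marks about 1 group in 20. Saa3 was 0.110 CPM in KO Control mouse A3673, the lowest of that group, where the other 5 mice had 0.429 to 0.564 CPM. These are 2 counts against 8 to 11, so all lie near the limit of detection. The gap to the nearest mouse was 0.756 of the range of the group. For T1D in WT mice, the values of Serpina3n in A3905 and A3906 (23.7 and 17.8 CPM) lay close to each other and so were not marked in this way.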

How the results depend on the processing

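No paired analysis was possible because the replicate identifiers are mouse numbers and no groups share one. The count of genes past the threshold for T1D in WT mice, 334 by edgeR, was 1002 with DESeq2, 5154 and 5173 with limma on log2 (TPM + 1) and log2 (TPM + 0.1), 88 without a count filter, 2211 in mice with IDs A36 to A39 only, and 0 without A3905 and A3906. The subset with IDs A36 to A39 held only A3905, A3906, and A3909 of WT T1D. The count for T1D in WT mice ranged from 0 to 1262 when 1 mouse was left out, and leaving out any mouse but A3674 of KO T1D moved it by over 1.5 times. With library sizes alone 76 genes were higher and 190 lower, against 215 and 119 with TMM, and with limma on log2 (TPM + 1) 83 were higher and 5071 lower. For T1D in KO mice the count was 0 in every alternative, for genotype in Control it was 3 to 5, and for the interaction it was 0 except 2 with limma on log2 (TPM + 1).

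None of the 8 genes passed the threshold for T1D in KO mice or for genotype in Control in any alternative. For Serpina3n in WT T1D, the log2 change of 2.62 was 0.99 with limma on log2 (TPM + 1), 0.53 without A3905 and A3906, and 3.36 in mice with IDs A36 to A39, and in the latter that of Hp, 0.54, was 0.92, that of Orm1, 0.69, was 1.14, and that of Lcn2, 0.18, was 0.52. The larger values of that subset rest mostly on A3905 and A3906, since A3909 was the only other WT T1D mouse in it. Chosen after seeing the data, leaving out A3905 and A3906 gave -0.13 in place of -2.21 for the interaction of Serpina3n and 0.19 in place of 0.39 for the summed paralogs in WT T1D. Signs turned for small values. Serpina3g in KO T1D was -0.0342, -0.0352, and -0.0172 with limma on both TPM scales and with library sizes alone, Serpina3g in WT T1D was -0.17 with limma on both (median tested gene -0.24 and -0.29), and Saa3 in KO T1D was -0.15, -0.34, and -0.0316. Lcn2 for genotype was 0.0266 in mice with IDs A36 to A39, and the sum of all Serpina3 paralogs, of which Serpina3n is a small share, was 0.17 for genotype. With 1 mouse left out, the ranges that crossed 0 were, for T1D in KO, -0.0698 to 0.0845 for Serpina3g, -0.15 to 0.325 for Serpina3f, -0.73 to 0.21 for Saa3, and -0.16 to 0.0551 for Lcn2, each lowest without A3682 except Lcn2 (without A3683). For genotype they were -0.0164 to 0.24 for Orm1, -0.49 to 0.24 for Saa3, and -0.15 to 0.0233 for Lcn2, and for T1D in WT -0.79 to 0.0791 for Saa3. The causes were not tested.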
